A study of Mus musculus with 2 samples.

Results

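The troponin and tropomyosin genes of skeletal muscle were examined for RNA fragments crosslinked to the splicing factor Mbnl2. The members are the 10 genes Tnnt1, Tnnt2, Tnnt3, Tnni1, Tnni2, Tnnc1, Tnnc2, Tpm1, Tpm2 and Tpm3, chosen by name from the protein families and not by their tag counts, out of 22366 protein-coding genes in the GENCODE annotation of mouse genome mm9. A tag counted for a gene when it overlapped the gene body on the gene's strand. Of the 10 members, 6 had at least 20 tags over both genotypes together, a minimum that 3877 protein-coding genes reached. The other 4 members, Tnnt1, Tnnt2, Tnni1 and Tnnc1, had 10 tags or fewer.

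HITS-CLIP (crosslinking, immunoprecipitation and sequencing) was performed on quadriceps muscle of WT mice and of Mbnl1-/- mice, 3 of each, at 15 to 16 weeks of age. Mbnl2 was purified with the antibody 3B4 after UV light had fixed it to the RNA it touched and RNase A, at a high and at a low concentration, had trimmed that RNA to short tags. The comparison addresses whether Mbnl2 occupies RNAs differently when its paralogue Mbnl1 is missing. The labels give both groups as C57BL/6, while the methods name a mixed background for crosses of the Mbnl1 allele with an Mbnl2 allele. The Mbnl1 allele is a germline deletion named for exon 3 of the gene, so every cell type of the muscle carried it. Tags of the remaining Mbnl1 RNA numbered 100 in WT and 452 in Mbnl1-/-, and as the deleted stretch could not be located here, they do not check the genotype.

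Troponin and tropomyosin are the calcium switch of the thin filament. Tropomyosin lies along actin and covers the sites that myosin binds. Troponin T holds the complex to tropomyosin, troponin I inhibits the contact with myosin, and troponin C binds calcium and relieves that inhibition. Separate genes encode the fast, slow and cardiac forms, and Tnnt3 and Tpm1 add further forms through alternative exons. Inclusion of the fetal exon of Tnnt3 is a known readout of muscleblind activity in muscle. Muscleblind proteins bind RNA at short motifs, which are TGCT or TGCC, or with another first letter CGCT or CGCC, written here as DNA.

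Each genotype was deposited as 1 merged table of unique tags. The WT table held 343554 tags from 5176203 reads, and the Mbnl1-/- table held 476543 tags from 50329234 reads. Tags whose genomic sequence was at least 70% one base, called single-base tags here, made up 44.0% of the WT tags and 16.97% of the Mbnl1-/- tags on assembled chromosomes. This difference enters every ratio that is scaled to all tags, although the members themselves held only 7 and 2 single-base tags. The rows of the WT table ran in 3 position-sorted blocks of 47008 to 156970 tags, and those of the Mbnl1-/- table formed 3 blocks of 88768 to 250572 tags. The labels do not name these blocks, so their values are given as a description of spread, without a test. The markers of skeletal muscle (Acta1, Ckm, Mylpf, Myh4, Ttn and Pvalb) held 693 WT and 2413 Mbnl1-/- tags, whereas the 4 heart markers held 5 and 3 (Myh6 4 and 3, Tnni3 1 and 0, and Nppa and Myl7 0 in both).

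Mbnl2 tags over the 10 members were more frequent in the Mbnl1-/- table, and nearly all of them lay on the fast-fibre troponin genes and on Tpm1 and Tpm2. The members held 180 tags in WT and 579 in Mbnl1-/-, or 524 and 1215 per 1000000 tags of the table. The Mbnl1-/-/WT ratio of these levels was 2.32, with an exact 95% Clopper-Pearson interval of 1.96 to 2.76 that reflects counting error alone and sets these libraries, not the genotypes, against each other. In the WT blocks the summed level was 447, 494 and 573 tags per 1000000, and in the Mbnl1-/- blocks it was 1185, 1329 and 1195. The groups of blocks did not overlap. On the opposite strand of the members lay 13 WT and 10 Mbnl1-/- tags. Over all 3877 genes, 44.1% had every Mbnl1-/- block above every WT block, and 31.0% with single-base tags left out. In whole tissue, fewer cells of a type and less RNA per cell cannot be told apart, and a higher RNA level cannot be told apart from more Mbnl2 on each RNA.

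Of the 6 members with at least 20 tags, 4 had a ratio of at least 2, namely Tnnt3, Tnnc2, Tpm1 and Tpm2. The same fold was reached by 41.5% of all genes, taken by the same minimum of pooled tags. Tnnc2 and Tnni2 passed that minimum through their Mbnl1-/- tags alone. The interval lay above 1 for the same 4 members, against 38.4% of all genes, and the ratio exceeded 1 for all 6 of them, against 79.9%. None of the 6 was at or below a ratio of 1/2, against 3.77% of all genes. Their median ratio was 2.32, beside a median of 1.74 and quartiles of 1.11 and 2.67 over all genes. Scaled so that the median gene stood at 1, the summed members had a ratio of 1.34 and 1 member, Tnnc2, reached a ratio of 2, as did 13.6% of all genes. With single-base tags left out the summed ratio was 1.64, and when tags of at least 2 reads were required as well it was 1.20 with an interval of 0.962 to 1.52.

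**Figure D1:**
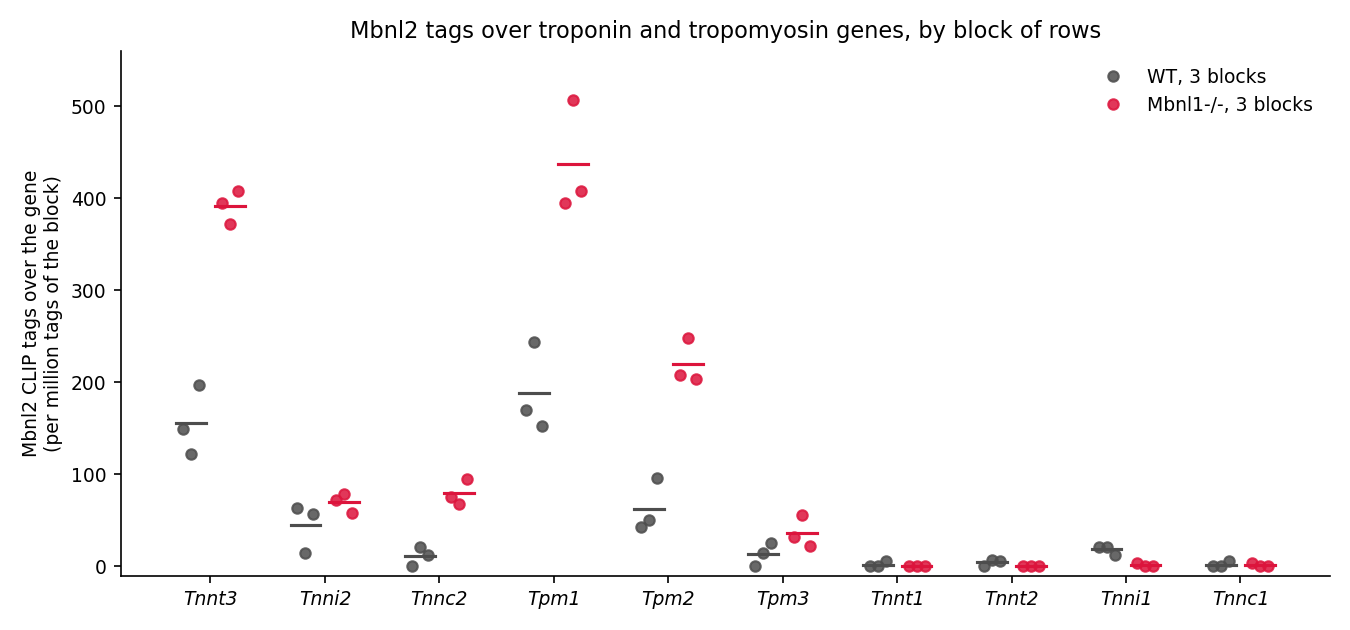
Mbnl2 tags over each member gene (vertical axis, tags per 1000000 tags of the block) for the 3 blocks of rows of the WT table (grey) and the 3 of the Mbnl1-/- table (red), with the mean as a line. Tnnt3, Tnnc2, Tpm1 and Tpm2 sit higher in every Mbnl1-/- block than in every WT block, and Tnni2 and Tpm3 overlap. The 4 slow and cardiac troponin genes lie at or below 21.5. Among them Tnni1 is higher in each WT block than in each Mbnl1-/- block, on 6 WT tags and 1 Mbnl1-/- tag.

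**Figure D2:**
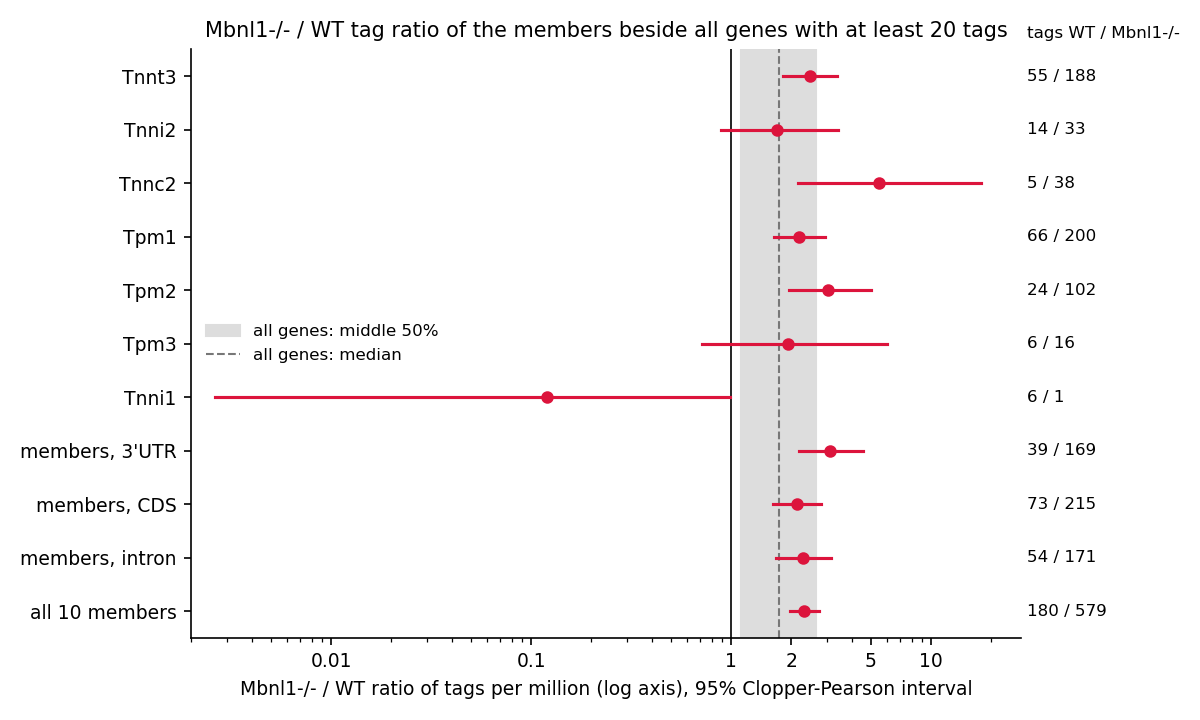
Mbnl1-/-/WT ratio of tags per 1000000 (log axis) with its 95% Clopper-Pearson interval for 7 member genes, for the members' tags by region and for all 10 members, with the tag numbers at the right. The shaded band runs from 1.11 to 2.67, the middle of all genes with at least 20 tags, the dashed line is their median of 1.74, and the solid line is at 1.

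Tnnt3 encodes fast skeletal troponin T and lies at chr7:149684741-149701914 on the plus strand of mm9. It held 55 WT and 188 Mbnl1-/- tags, a ratio of 2.46 (interval 1.82 to 3.39). With tags of at least 2 reads the ratio was 1.354 (0.925 to 2.03), and without single-base tags as well it was 1.14 (0.777 to 1.70). The WT blocks had 7, 17 and 31 tags, or 149, 122 and 197 per 1000000. The Mbnl1-/- blocks had 99, 33 and 56 tags, or 395, 372 and 408 per 1000000. Each Mbnl1-/- block was above each WT block, and the means were 156 ± 38.4 and 392 ± 18.4 tags per 1000000 (SD, n = 3 blocks). All but 2 of its tags had a sequence found once in mm9. Gm14492, a gene on the opposite strand, overlaps the gene up to position 149692676, before the fetal exon, and tags were assigned by strand.

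Tags on Tnnt3 were as often intronic as coding in WT and more often intronic in Mbnl1-/-. Coding sequence held 26 WT and 67 Mbnl1-/- tags (ratio 1.86, interval 1.17 to 3.05), and introns held 26 and 110 (ratio 3.05, interval 1.97 to 4.87). Per kilobase the coding level was far higher, at 86.5 and 161 tags per 1000000, against 4.78 and 14.6 in introns. The 3′UTR held 2 and 8 tags. Among the constitutive coding exons, exon 12 had 0 WT and 10 Mbnl1-/- tags, exon 11 had 2 and 11, and exon 13 had 5 and 15. The counts ran the other way at exon 10, with 6 and 5 tags, and at exon 14, with 9 and 6. The clusters of overlapping tags on exons 10 and 14 had ratios of 0.601 and 0.481, but their intervals (0.145 to 2.36 and 0.141 to 1.51) include 1, so these tag numbers do not separate the tables.

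A dense stretch of tags in Tnnt3 surrounded the fetal exon, called exon F here. Exon F (chr7:149693655-149693693, 39 nt) is coding sequence that 5 of the 21 transcripts spanning it contain. The exon itself had 2 WT and 9 Mbnl1-/- tags, the 250 nt of intron upstream had 4 and 22, and the 250 nt downstream had 1 and 11. Tags that cross an edge of the exon, 2 in WT and 8 in Mbnl1-/-, are in 2 of these counts. With each tag counted once, this window of 539 nt held 5 WT and 34 Mbnl1-/- tags, a ratio of 4.90 (interval 1.91 to 16.1). The WT blocks had 1, 0 and 4 tags in the window, or 21.3, 0 and 25.5 per 1000000. The Mbnl1-/- blocks had 17, 8 and 9 tags, or 67.8, 90.1 and 65.6 per 1000000. The blocks did not overlap, also with single-base tags left out. The window covers 3.14% of the gene's length and held 18.1% of its Mbnl1-/- tags (95% Clopper-Pearson interval 12.9 to 24.3) and 9.09% of its WT tags (3.02 to 19.95), 2 shares whose intervals overlap.

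The sequences under these tags are shown because they are the RNA around the exon whose inclusion muscleblind proteins regulate. Each is a stretch of 30 nt of the mm9 plus strand under the peak of a group of at least 3 overlapping tags, 5′ to 3′, with any of these motifs in capitals. All 6 such groups that overlap the window are shown, a choice made after their values were seen.
upstream 175 to 128 nt: gggaggagacctatgggaaggtgtaggagc
upstream 126 to 88 nt: ctctgtgcgTGCCTGCCtcTGCTgttccat
upstream 79 to 49 nt: acTGCTGCTgtgtggcctctgcacttctgc
upstream 48 to 8 nt: cgtggcttttttcttgcatgtgCGCTtgtg
start of exon F: aTGCTgtCGCCgaggaggagcgggaggagg
downstream: agtgtgtctttgttgtggactctccaaccc
The first stretch (chr7:149693485-149693514) belongs to a group of 1 WT and 5 Mbnl1-/- tags and holds no motif. The second (chr7:149693540-149693569) belongs to a group of 0 and 3 tags, and the third (chr7:149693576-149693605) also to one of 0 and 3. The fourth (chr7:149693611-149693640), just before the splice site, belongs to a group of 0 and 7 tags from all 3 Mbnl1-/- blocks. The fifth (chr7:149693655-149693684) starts with the first base of exon F and is the peak of a longer group of 3 WT and 13 Mbnl1-/- tags that begins 7 nt before the exon and runs on into the downstream intron. The last (chr7:149693768-149693797), in the downstream intron, belongs to a group of 0 and 3 tags and holds no motif. Of the 6 stretches, 4 thus held a motif. Each of the 6 groups reached the minimum of 3 tags through its Mbnl1-/- tags alone, so these counts are a description. The peaks of such groups further upstream in this intron held no motif, except 1 motif in the group from 1507 to 1477 nt before the exon. The window of 539 nt held 18 motifs on the sense strand, overlaps counted, or 3.34 per 100 nt, against 1.36 per 100 nt over the whole gene.

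The whole intron from exon 8 to exon F (2219 nt), which includes the 250 nt upstream of the exon, held 11 WT and 45 Mbnl1-/- tags, a ratio of 2.95 (interval 1.502 to 6.32). One site in it, outside the window, went the other way. From 553 to 522 nt before exon F, 4 WT tags from all 3 WT blocks overlapped where the Mbnl1-/- table had 0 tags, in a stretch without any of these motifs. The intron from exon F to exon 9 held 2 and 12 tags, of which 1 and 11 lay in the 250 nt next to the exon.

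**Figure D3:**
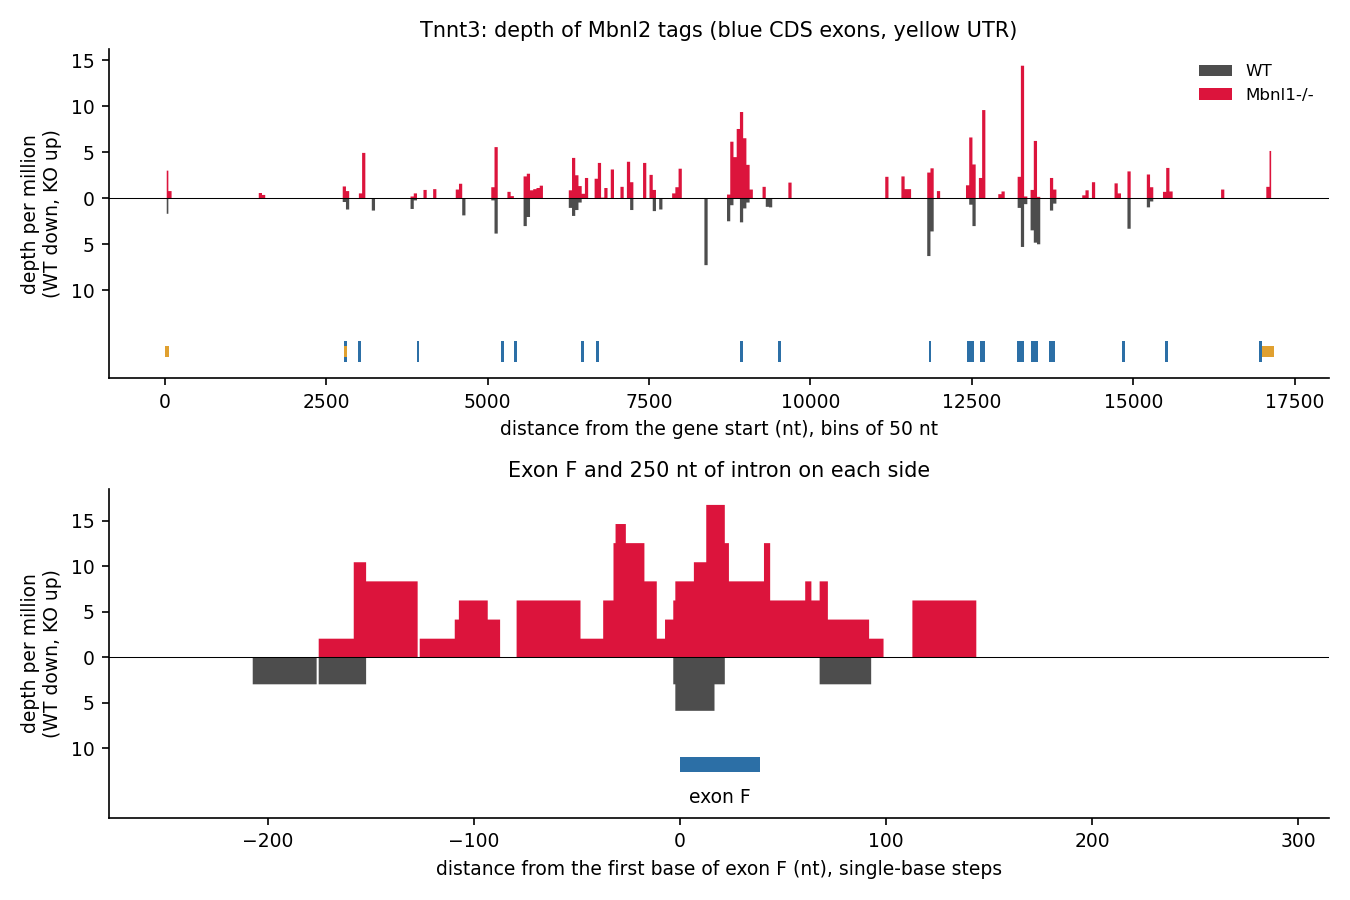
Depth of Mbnl2 tags (tags covering a base, per 1000000 tags of the table) along Tnnt3 from its start in bins of 50 nt (top) and base by base around exon F (bottom), with Mbnl1-/- drawn upward in red, WT downward in grey, coding exons in blue and UTRs in yellow. The window of exon F with its flanks holds 34 Mbnl1-/- and 5 WT tags, which run from the upstream intron through the exon into the downstream intron.

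The other alternative exons of Tnnt3 had few tags. Exons 4 to 8, which vary the acidic start of the protein, are 12 to 18 nt long, no longer than the shortest tag, and each deposited tag is a single unspliced stretch of genome. A tag of spliced mRNA that crosses the edge of such an exon therefore could not be placed. Exon 7 with its flanks held 3 WT and 13 Mbnl1-/- tags, and exon 8 with its flanks held 0 and 11 (interval from 1.81 upward). The intron of 216 nt between these 2 exons, with 0 and 4 tags, is in both counts. The mutually exclusive exons 16 and 17, which change the end of the protein, held 0 and 0 tags and 0 and 3 tags. In total, the 8 alternative exons of Tnnt3 with their flanks held 18 and 82 tags, a ratio of 3.28 (1.95 to 5.81). The rest of the gene held 37 and 106, a ratio of 2.07 (1.41 to 3.09), and these intervals overlap.

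Tnni2, fast skeletal troponin I, lies at chr7:149627713-149630315 on the plus strand and held 14 WT and 33 Mbnl1-/- tags. Its ratio of 1.70 has an interval of 0.885 to 3.44, which includes 1. The WT blocks had 63.8, 14.3 and 57.3 tags per 1000000 and the Mbnl1-/- blocks 71.8, 78.9 and 58.3. The groups overlapped, with the first WT block above the third Mbnl1-/- block. The tags lay mainly in coding sequence, with 9 in WT and 22 in Mbnl1-/-. When tags of at least 2 reads were required, the ratio was 0.747 (0.318 to 1.89). Without the third WT block it was 2.58, with an interval of 1.003 to 8.48 that just excludes 1.

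Tnnc2, fast skeletal troponin C, lies at chr2:164602661-164605467 on the minus strand and had the highest ratio of the members. It held 5 WT and 38 Mbnl1-/- tags, a ratio of 5.48 (interval 2.15 to 17.8). The WT blocks had 0, 3 and 2 tags, or 0, 21.5 and 12.7 per 1000000. The Mbnl1-/- blocks had 19, 6 and 13 tags, or 75.8, 67.6 and 94.8 per 1000000. Every Mbnl1-/- block was above every WT block, and the value rests on 5 WT tags. With tags of at least 2 reads the ratio was 2.86, with an interval of 0.865 to 14.9. Coding sequence held 4 and 31 of the tags. The gene overlaps Ube2c on the opposite strand.

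The peak of the one cluster of at least 10 tags in each of these short genes held none of the motifs. They are shown as the one cluster of either gene, each as 30 nt of the gene's strand in mm9.
Tnni2 coding exon: aaacaactgcatgcgaagatcgacgtggct
Tnnc2 coding exon: agctagctgagattttccgggcttctgggg
The Tnni2 stretch (chr7:149629485-149629514, plus strand) is the peak of a cluster of 3 WT and 8 Mbnl1-/- tags. The Tnnc2 stretch (chr2:164603050-164603079, minus strand) is the peak of a cluster of 3 and 12, which reached 10 tags through its Mbnl1-/- tags alone.

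The slow and cardiac troponin genes had few tags. Slow troponin T, Tnnt1 (chr7:4456172-4467984, minus strand), held 1 WT tag and 0 Mbnl1-/- tags. Cardiac troponin T, Tnnt2 (chr1:137737452-137748837, plus strand), held 2 and 0, and all 3 tags of these genes were intronic. Slow troponin I, Tnni1 (chr1:137679642-137707566, plus strand), held 6 WT tags and 1 Mbnl1-/- tag, and 3 of the 6 WT tags were single-base tags. Its WT blocks had 1, 3 and 2 tags, or 21.3, 21.5 and 12.7 per 1000000. Its Mbnl1-/- blocks had 1, 0 and 0 tags, or 3.99, 0 and 0 per 1000000. These levels do not overlap but rest on few tags, and how the single-base tags fall over the WT blocks was not counted. Nor was the share of all genes with this order of blocks. Troponin C of slow muscle and heart, Tnnc1 (chr14:32021498-32024915, plus strand), held 1 tag in each table. By a limit of 3 tags, a count of 0 allows up to 8.73 tags per 1000000 in WT and 6.30 in Mbnl1-/-. Summed, these 4 genes had 10 WT and 2 Mbnl1-/- tags, a ratio of 0.144 (0.0154 to 0.677), whereas the 3 fast troponin genes had 74 and 259, a ratio of 2.52 (1.94 to 3.31). Without the single-base tags, 7 WT tags remain for the slow and cardiac genes.

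Tpm1 encodes the alpha tropomyosin of striated muscle and many other isoforms, and lies at chr9:66870397-66897213 on the minus strand. It had the most tags of the members, with 66 in WT and 200 in Mbnl1-/-, a ratio of 2.18 (interval 1.65 to 2.93). The interval included 1 when scaled to the median gene (1.26, 0.949 to 1.69), with tags of at least 2 reads (1.48, 0.999 to 2.26) and when single-base tags were dropped too (1.24, 0.838 to 1.89). The WT blocks had 8, 34 and 24 tags, or 170, 244 and 153 per 1000000. The Mbnl1-/- blocks had 99, 45 and 56 tags, or 395, 507 and 408 per 1000000. The blocks did not overlap, and the means were 189 ± 48.2 and 437 ± 61.2 (SD, n = 3 blocks). With single-base tags left out of the block totals alone they did overlap, the second WT block reaching 491 tags per 1000000 and the lowest Mbnl1-/- block 472. The gene's own 2 WT and 2 Mbnl1-/- single-base tags stayed in these counts, and the overlap without them was not counted.

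Many Tpm1 tags lay at the 3′ end of the gene. The 3′UTR held 18 WT and 79 Mbnl1-/- tags (ratio 3.16, interval 1.88 to 5.61), coding sequence 25 and 61 (ratio 1.76, 1.09 to 2.92), and introns 15 and 48 (ratio 2.31, 1.27 to 4.44). The last exon of the striated isoform, exon 9b (chr9:66875699-66875974), alone held 16 and 56. With 250 nt of intron on each side, the window of exon 9b held 31.8% of the gene's WT tags (20.9 to 44.4) and 31.5% of its Mbnl1-/- tags (25.1 to 38.4) in 2.89% of its length. The intervals of these shares overlap. Exon 9a had 4 and 6 tags, while the 250 nt downstream of it, which some transcripts use as 3′UTR, had 2 and 14. Exon 9c, another alternative end, had 0 tags in both tables, and exon 9d had 1 and 6.

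Of the 3 clusters of at least 10 tags from exon 9a onward, the one on exon 9a had no motif under its peak and the other two had 1 each. These are given on the minus strand of mm9, 5′ to 3′, with the motif in capitals.
Tpm1 exon 9b: TGCTtcactcctcccaagactccttcgtca
Tpm1 between exons 9a and 9b: ctcaTGCTtgtgtgatgacctcaccgtggc
The first (chr9:66875934-66875963) is the peak of a cluster of 224 nt, which as a whole held 14 WT and 49 Mbnl1-/- tags, a ratio of 2.52 (interval 1.37 to 4.95). The second (chr9:66877403-66877432) is the peak of a cluster of 68 nt with 1 WT and 10 Mbnl1-/- tags. This cluster reached the minimum of 10 tags through its Mbnl1-/- tags alone, so its counts are a description.

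The exon pairs inside Tpm1 had fewer tags. Exon 2a, the smooth muscle form, had 0 tags in both tables, and exon 2b, the form used in striated muscle, had 2 WT and 8 Mbnl1-/- tags. Exon 6a had 1 and 0 and exon 6b had 8 and 5, so that exon 6b with its flanks had a ratio of 0.631 with an interval of 0.195 to 1.99. The start exon 1b of the short isoforms had 0 tags, but the intron of 3823 nt before it, from exon 2b, had 1 WT and 18 Mbnl1-/- tags. This intron was named after its values were seen, and its count rests on 1 WT tag. Among the other introns of Tpm1, the one from exon 9a to 9b had 9 WT and 31 Mbnl1-/- tags, and its interval lay above 1. The intron from exon 1b to 3 had 4 and 10 tags, with an interval that includes 1. Some introns had similar counts in both tables, such as 3 and 4 tags from exon 8 to 9a and 1 and 1 from exon 9b to 9c. Summed over its 8 alternative exons with their flanks, Tpm1 had 45 and 112 tags, a ratio of 1.79 (1.26 to 2.60). The rest of the gene had 21 and 88, a ratio of 3.02 (1.86 to 5.12). The alternative exons were thus the higher part in Tnnt3 and the lower part in Tpm1, with overlapping intervals in both genes. Over both genes they had 63 and 194 tags, a ratio of 2.22 (1.66 to 3.00). Scaled to the median gene it was 1.28 (0.958 to 1.73), an interval that includes 1. The interval also included 1 with tags of at least 2 reads (1.48, 0.999 to 2.26) and without single-base tags as well (1.24, 0.838 to 1.89).

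Tpm2 encodes the beta tropomyosin of striated muscle and lies at chr4:43527583-43536637 on the minus strand. It held 24 WT and 102 Mbnl1-/- tags, a ratio of 3.06 (interval 1.95 to 5.0). Under both tag filters it was 1.61 (0.917 to 3.01). The WT blocks had 2, 7 and 15 tags, or 42.5, 50.2 and 95.6 per 1000000. The Mbnl1-/- blocks had 52, 22 and 28 tags, or 208, 248 and 204 per 1000000. The blocks did not overlap, and the means were 62.8 ± 28.7 and 220 ± 24.3 (SD, n = 3 blocks). None of the 126 tags was purely intronic, unlike in Tnnt3 and Tpm1. The 3′UTR held 14 and 68 tags (ratio 3.50, interval 1.95 to 6.74), and coding sequence held 8 and 31 (ratio 2.79, 1.26 to 7.03).

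Next to each other in the Tpm2 3′UTR lay a cluster with WT tags and one without, and neither has a motif under its peak. They are shown for this contrast, on the minus strand of mm9.
Tpm2 3′UTR with WT tags: aaaggcttctaaaggaaggcaccccgttta
Tpm2 3′UTR without WT tags: ggcctagagcaagatttgcgtctagatagt
The first (chr4:43528051-43528080) is the peak of a cluster of 6 WT and 15 Mbnl1-/- tags, a ratio of 1.80 (interval 0.661 to 5.67). The second (chr4:43527980-43528009) is the peak of one of 0 and 13 tags. Both clusters reached the minimum of 10 tags through their Mbnl1-/- tags alone, and the second was picked for its lack of WT tags. Their counts are therefore a description, and the clusters are not shown to differ in ratio.

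**Figure D4:**
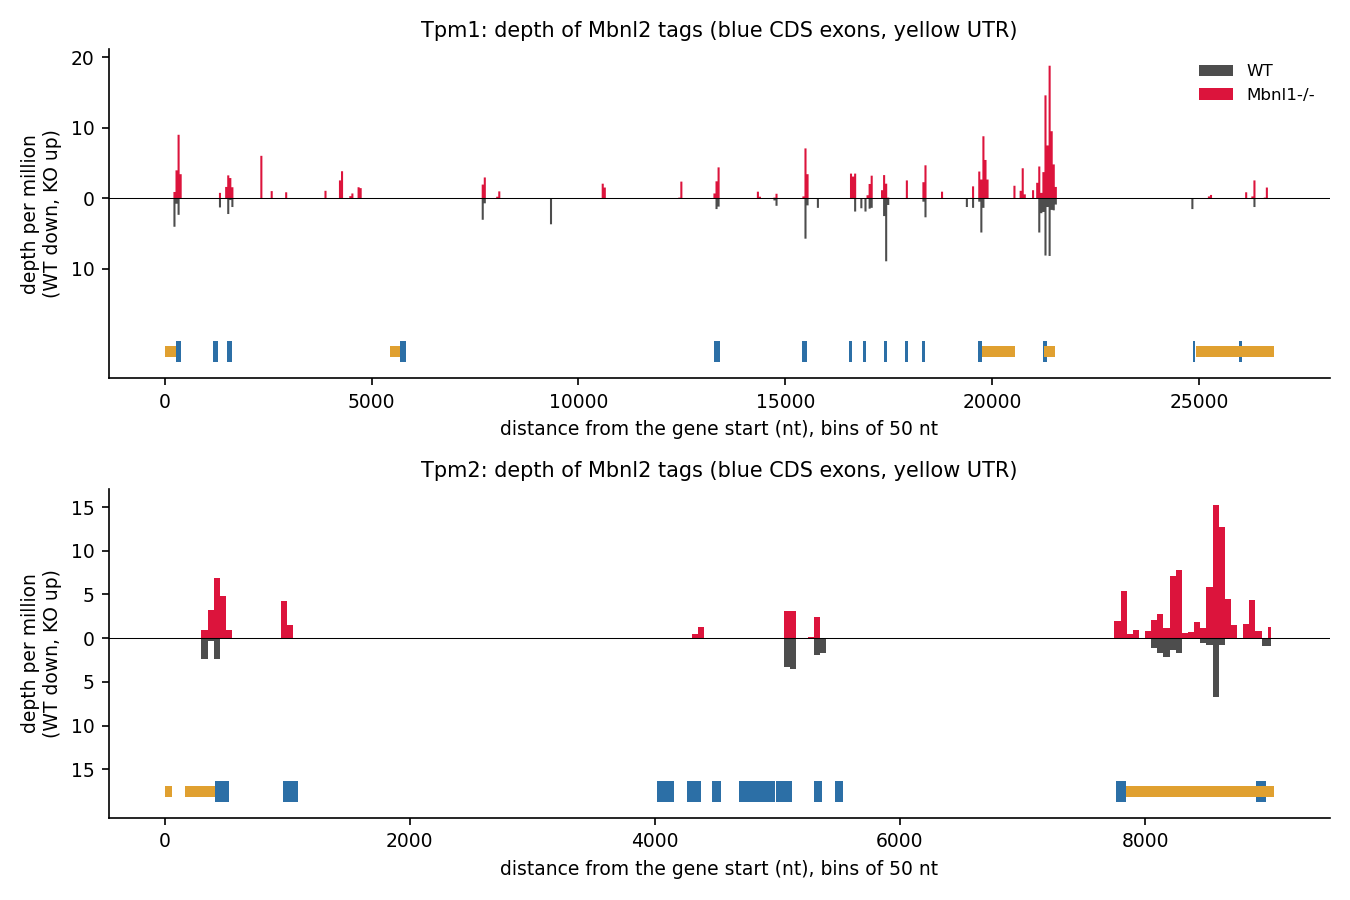
Depth of Mbnl2 tags (tags covering a base, per 1000000 tags of the table) along Tpm1 (top) and Tpm2 (bottom) from the gene start in bins of 50 nt, with Mbnl1-/- upward in red, WT downward in grey, coding exons in blue and UTRs in yellow. The highest Mbnl1-/- bins of Tpm1 lie on exon 9b, while the highest WT bin lies on exon 6b, and in Tpm2 the highest bin of either table lies in the 3′UTR.

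Tpm3, the tropomyosin of slow fibres and of many cells outside muscle, lies at chr3:89876571-89904824 on the plus strand and held 6 WT and 16 Mbnl1-/- tags. Its ratio of 1.92 has an interval of 0.715 to 6.00, and the blocks overlapped. Without the third WT block it was 3.13 (0.736 to 28.1). The 6 WT tags were all intronic and 2 of them were single-base tags. Of the Mbnl1-/- tags, 7 were in the 3′UTR and 7 were intronic. A sequence found once in mm9 was carried by 4 of the WT and 10 of the Mbnl1-/- tags, so part of the counts may belong to copies elsewhere in the genome.

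Seen by region, the members' tags were mostly exonic. Coding sequence held 40.6% of their WT tags (interval 33.3 to 48.1) and 37.1% of their Mbnl1-/- tags (33.2 to 41.2), against 5.97% and 9.82% over all protein-coding genes. Introns held 30% and 29.5%, against 75.6% and 58.1% over all genes. In the 3′UTR lay 21.7% (15.9 to 28.4) and 29.2% (25.5 to 33.1) of the members' tags, shares whose intervals overlap, against 16.6% and 30.3% over all genes. With single-base tags left out, 68.1% and 54.8% of the tags of all genes were intronic. The ratio was 3.12 (2.19 to 4.55) for the members' 3′UTR tags, 2.12 (1.62 to 2.81) for coding tags and 2.28 (1.67 to 3.16) for intronic tags, with overlapping intervals. The 5′UTRs held 9 and 13 tags, a ratio of 1.04 (0.412 to 2.76).

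**Figure D5:**
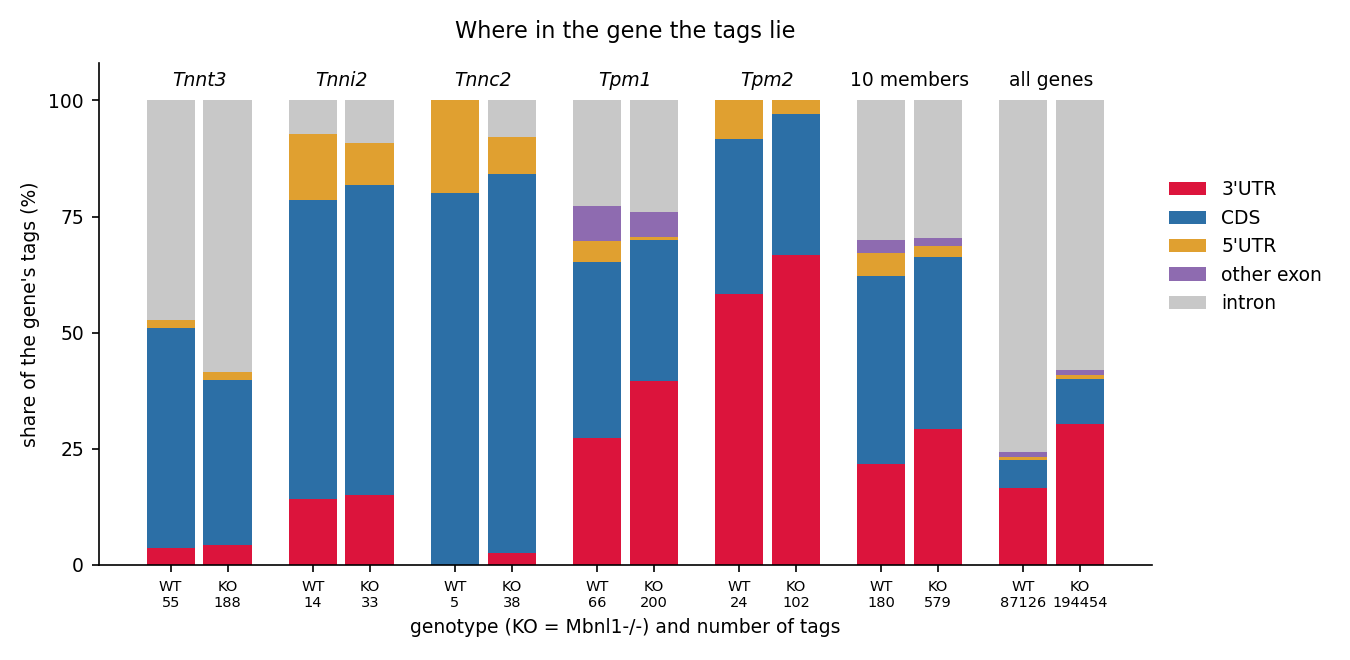
Share of tags (vertical axis, percent) in 3′UTR, coding sequence (CDS), 5′UTR, other exon and intron for 5 member genes, for all 10 members and for all protein-coding genes, by genotype (KO is Mbnl1-/-), with the number of tags under each bar. Coding sequence takes 40.6% and 37.1% of the members' tags against 5.97% and 9.82% over all genes, and Tpm2 has no intronic tags.

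Across the members, 17 clusters of overlapping tags held at least 10 tags. Under the peak of 10 of them (58.8%) lay at least 1 of the 4 motifs, and under 3 (17.6%) at least 2. Over the 1490 clusters of the same size in all protein-coding genes, not counting clusters mostly of single-base tags, the shares were 72.6% and 36.2%. Windows of 30 nt tiled over all coding sequence held a motif in 35.1%, and those over all 3′UTRs in 28.1%. The member clusters with at least 2 motifs were those on exon F, on exon 1a of Tpm1 and in the intron from exon 4 to 5 of Tnnt3. That last cluster, with 3 WT and 7 Mbnl1-/- tags, had a ratio of 1.68 (0.384 to 10.1).

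Other genes of the thin filament and the structures it meets, the Z-disc and myosin binding protein C, were counted alongside. Of 23 annotated genes on this list, 18 had at least 20 tags, of which 10 had a ratio of at least 2 and 0 a ratio of 1/2 or less, with a median of 2.42. This is again beside 41.5% and 3.77% of all genes. Neb, the nebulin that spans the filament, held 74 WT and 369 Mbnl1-/- tags (ratio 3.59, interval 2.79 to 4.68). Skeletal actin, Acta1, held 72 and 193 (1.93, 1.47 to 2.57), Mybpc1, the slow myosin binding protein C of the thick filament, held 28 and 132 (3.40, 2.25 to 5.31), and the actin crosslinker Actn2 held 14 and 78 (4.02, 2.26 to 7.68). Tpm4, a tropomyosin outside the members that was named after its values were seen, held 5 and 29 (4.18, 1.60 to 13.8). Of 10 genes for fast-fibre isoforms, a list that holds the members Tnnt3, Tnni2 and Tnnc2, 9 had a ratio of at least 2. Of 8 for slow-fibre isoforms, which include the members Tnnt1, Tnni1, Tnnc1 and Tpm3, 3 had at least 20 tags, with a median ratio of 3.06. Of these 3, Myh7 and Atp2a2 had a ratio of at least 2. The interval of Myh7, with 4 and 17 tags, included 1 (0.999 to 12.5), and that of Atp2a2 did not (1.61 to 7.86). The 8 together held 27 and 81 tags. The 3 markers of fibroblasts held 147 WT and 578 Mbnl1-/- tags, with ratios of 2.76 at Col1a1 and 3.68 at Dcn, and of 1.80 at Pdgfra with an interval (0.661 to 5.67) that includes 1. Fat markers had 3 and 20 tags, Schwann cell markers 6 and 14, satellite cell markers 8 and 11, and blood markers 5 and 6. The 3 endothelial markers had 37 and 87 tags, with ratios of 0.811 at Pecam1, 1.26 at Kdr and 3.05 at Cdh5. The part of these cell types, and of the RNA level of each gene, in the members' ratios was not tested.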

How the data were processed

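Mbnl2 HITS-CLIP tags of WT and Mbnl1-/- quadriceps were analysed. The authors filtered the reads, aligned them to mm9 with BWA (version not given in the sources used here), left out short sequences and likely PCR duplicates, and merged 3 mice per genotype. The deposited count of each tag is its number of collapsed reads, without normalization, and the tables do not mark which tags came from high or low RNase. Each deposited row was counted as 1 tag.

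With Python 3.11.15, numpy 2.4.6, pandas 2.3.3, scipy 1.17.1 and matplotlib 3.10.9, tags were assigned to GENCODE genes by strand, once each in the order 3′UTR, CDS, 5′UTR, other exon and intron, and divided by the tags of their table. With 1 table per genotype no test was made, and ratios carry exact Clopper-Pearson intervals at 95%, which treat tags as independent. The intervals were tested on simulated data. The Mbnl1-/- table runs in 6 sorted runs of rows, joined into 3 blocks by the per-mouse totals in the study's supplement, whereas the 3 WT blocks are taken as they stand. A position can recur between runs. An exon counted as alternative if some transcripts spanning it lack it, with flanks of 250 nt. Clusters needed at least 10 tags, and motifs were searched in windows of 30 nt. Named were the 10 members, their clusters, the exons of Tnnt3 and Tpm1, and the 4 genes of the thin filament and Z-disc list with most tags, beside Tpm4, named after its values were seen. The members and lists were chosen with earlier results of these data known. For Tnnc1, which has 2 annotated entries, the shorter was used. Alternatives were other scalings, filters on single-base and 1-read tags, collapsing of duplicates, counting by midpoint and tags placed once in mm9. Leaving out single blocks and collapsing across blocks were chosen after the data were seen.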

Additional observations from a re-analysis of the deposited data

How the results depend on the processing

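The summed members kept a ratio above 1 under every alternative run, but its size followed the scaling and the tag filters. The summed ratio was 3.22 with raw tags, 1.34 scaled to the median gene, 1.64 without single-base tags, 1.43 with tags of at least 2 reads and 1.20 with both filters. The median over members was 3.22, 1.34, 1.82, 1.48 and 1.24 in the same order, beside a median over all genes of 1.48 without single-base tags and 1.32 with both filters. The alternative exons of Tnnt3 and Tpm1 had ratios of 3.08, 1.28, 1.51, 1.48 and 1.24. The number of members with at least 20 tags and a ratio of at least 2 was 6 with raw tags (62.8% of all genes), 1 when scaled to the median gene (13.6%), 2 without single-base tags (28.9%), 1 with tags of at least 2 reads (30.9%) and 1 with both filters (22.4%). It was 3 on collapsing identical positions (33.2%) or 5′ ends (31.2%), where Tpm1 was at 1.95 and 1.86. With both filters, 0 of the 6 members had an interval above 1. So did 10.97% of the 1641 genes that still had at least 20 tags, whereas the 6 members were taken by their tags before filtering. Tnni2 was below 1 with tags of at least 2 reads (0.747) and with both filters (0.627). Leaving out each block in turn gave summed ratios of 2.23 to 2.52 and medians of 2.29 to 3.07, the highest without the third WT block, where Tnni2 was at 2.58 and Tpm3 at 3.13. Collapsing identical positions or 5′ ends, counting by midpoint and keeping tags placed once in mm9 kept the summed ratio within its interval. No paired analysis was possible because each genotype is 1 merged table and the blocks carry no numbers that the labels share. Depth limits the members with few WT tags, Tnnc2 with 5 and the window of exon F with 5, and the slow and cardiac troponin genes. The cause of these shifts was not tested.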
